A study of Mus musculus with 24 samples.

Results

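The genes described here are 35 components of the apoptosis machinery from the BCL2 family, the caspases, the inhibitor of apoptosis proteins, and the death receptors with their adaptors. They were found by gene name among the 55416 genes of the deposited count table, where all 35 were listed, and all 35 passed the filter on low counts. RNA of the neonatal mouse cerebellum was sequenced from 24 animals, 12 in the Ethanol group and 12 in the vehicle Control group. All animals were C57BL/6J mice, the Ethanol animals were given ethanol in intralipid by gavage from postnatal day 4 (P4), and the Control animals were given intralipid with water in its place. By the study's methods the animals were killed at P5 or P6, 24 h after the last dose, but the labels give neither the age, the sex nor the litter of each animal, so P5 and P6 were compared together. The question here was which parts of the cell death pathway differed at the RNA level at the onset of ethanol exposure in this model of the third trimester of human pregnancy.

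Apoptosis is run by 2 routes that meet at the caspases, proteases made as inactive proenzymes. In the intrinsic route, BH3-only proteins release the pore-forming BCL2 proteins from the prosurvival ones, cytochrome c leaves the mitochondrion and joins APAF1 in the apoptosome, and caspase-9 is activated there. In the extrinsic route, death receptors at the cell surface recruit FADD and caspase-8. The developing brain is known to lose neurons by caspase-dependent apoptosis after ethanol, and the cerebellum in the first postnatal days holds many dividing granule neuron precursors. Caspase activation and release of proteins from mitochondria take place on protein, which RNA levels do not show.

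By label the tissue was brain, while the methods of the study give cerebellum. Levels are in CPM, counts scaled to the same library size. Zic1, a transcription factor of granule neuron precursors, was measured at 1126 ± 101 CPM (SD, n = 12) in Control animals and 1162 ± 124 CPM in Ethanol animals, and En2, of the midbrain and hindbrain, at 64.1 ± 6.46 and 64.8 ± 4.24 CPM. Emx1 and Emx2, of the forebrain, were near 0, with Emx1 at 0.0557 ± 0.0431 and 0.0281 ± 0.0331 CPM, so the markers were those of cerebellum. Libraries held 26982564 to 38804942 counts. The Ethanol animal X4673 stood apart, since it was the highest or the lowest of the 12 Ethanol animals in 44.2% of the 17736 genes tested and in 17 of the 35 apoptosis genes (48.6%). The Control animal X4768 was the highest or lowest Control animal in 30.9% of all genes and in 13 apoptosis genes, while the other animals did not exceed 20.8% of all genes. In 4 libraries, Ethanol X4568 and X4766 and Control X4761 and X4770, the choroid plexus transcript Ttr was under 4 on the log2 CPM scale. Results that changed without these libraries are given with and without them.

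Of the 35 apoptosis genes, 8 (22.9%) differed between Ethanol and Control animals at an adjusted p under 0.05 (edgeR's quasi-likelihood test, Benjamini-Hochberg adjustment over all 17736 genes tested), beside 14.9% of all genes tested. 5 were higher in Ethanol animals, namely Fas, Bcl2, Bcl2l2, Ripk1 and Cflar, where 9.07% of all genes were higher. 3 were lower, namely Casp6, Casp9 and Pmaip1, where 5.8% of all genes were lower. The other 27 did not pass the test. Apart from Fas, with a ratio of means of 2.01, the changes were small. The median log2 fold change over the 35 genes was 0.03, beside -0.01 over all genes, with 19 values above 0 and 16 below. The median size of the change regardless of sign was 0.09 for the apoptosis genes and 0.07 for all genes on the log2 scale. In bulk tissue, fewer cells of a type and less RNA per cell cannot be told apart, which holds for every value below. Without X4673, 11 of the 35 genes passed the test, the 8 above and Bok, Aifm1 and Tnfrsf1a, beside 17.9% of all genes tested in that fit. Without X4768 the count was 10, beside 16.9% of all genes. Without the 4 libraries low in Ttr it was 7, beside 10.2% of all genes.

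**Figure D1:**
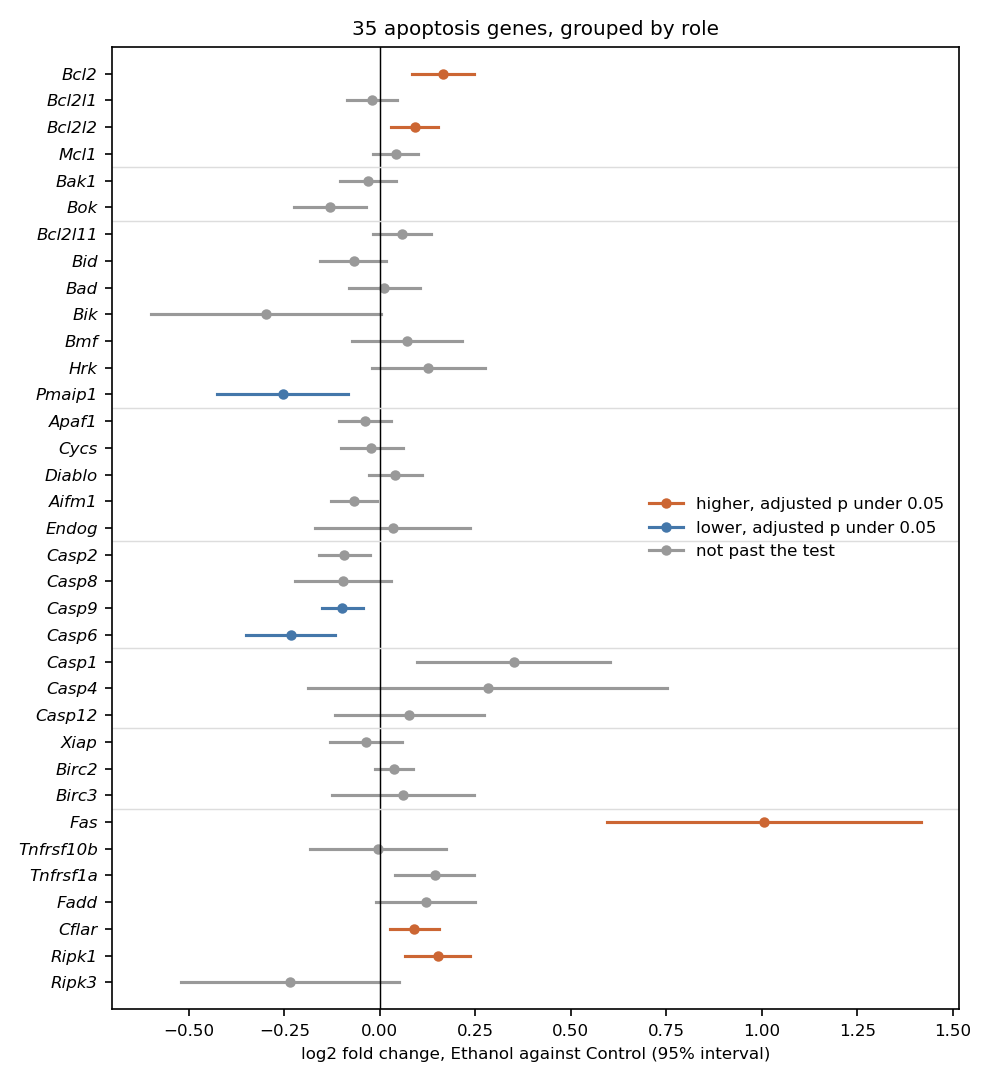
Log2 fold change of Ethanol against Control for each of the 35 apoptosis genes, with the 95% interval as a bar, in order of role and with grey lines between role groups (12 animals per group). Orange marks the 5 genes that were higher, blue the 3 that were lower and grey the 27 that did not pass the test, and Fas stands apart from the other genes at the right.

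The stretches before the transcription start are shown for the 5 apoptosis genes whose calls held in the most alternative analyses, as the regulatory sequence nearest to the RNA that was measured. Each is the 250 bases before a RefSeq start in GRCm38.p6, written 5′ to 3′ on the strand of the gene. Fas lies at chr19:34290409-34290658 on the plus strand, Bcl2 at chr1:106714291-106714540 on the minus strand, the second RefSeq start of Ripk1 at chr13:34002624-34002873 on the plus strand, Casp6 at chr3:129901165-129901414 on the plus strand and Casp9 at chr4:141793362-141793611 on the plus strand. Capitals mark matches, on either strand, to the GC box (GGGCGG), the STAT motif (TTCNNNGAA) and the AP-1 motif (TGANTCA).
Fas: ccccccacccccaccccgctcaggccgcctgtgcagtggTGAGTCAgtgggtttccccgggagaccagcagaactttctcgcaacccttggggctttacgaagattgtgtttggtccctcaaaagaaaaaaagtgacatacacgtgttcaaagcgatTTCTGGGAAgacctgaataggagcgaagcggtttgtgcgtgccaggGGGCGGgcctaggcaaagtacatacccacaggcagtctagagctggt
Bcl2: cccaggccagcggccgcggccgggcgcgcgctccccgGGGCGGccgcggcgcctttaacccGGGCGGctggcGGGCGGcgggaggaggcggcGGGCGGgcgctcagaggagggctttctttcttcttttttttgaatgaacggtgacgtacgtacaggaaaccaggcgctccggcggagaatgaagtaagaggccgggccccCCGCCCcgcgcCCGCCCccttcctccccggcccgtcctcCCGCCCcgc
Ripk1: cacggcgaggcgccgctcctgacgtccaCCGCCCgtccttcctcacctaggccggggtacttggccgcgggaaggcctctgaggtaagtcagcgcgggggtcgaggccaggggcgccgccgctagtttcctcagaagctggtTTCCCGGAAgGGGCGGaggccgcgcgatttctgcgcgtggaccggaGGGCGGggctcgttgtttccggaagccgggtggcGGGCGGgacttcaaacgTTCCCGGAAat
Casp6: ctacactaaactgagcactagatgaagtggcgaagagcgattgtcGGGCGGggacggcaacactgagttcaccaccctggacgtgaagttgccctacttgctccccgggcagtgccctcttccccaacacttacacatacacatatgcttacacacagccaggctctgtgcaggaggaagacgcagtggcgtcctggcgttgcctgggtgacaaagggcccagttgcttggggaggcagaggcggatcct
Casp9: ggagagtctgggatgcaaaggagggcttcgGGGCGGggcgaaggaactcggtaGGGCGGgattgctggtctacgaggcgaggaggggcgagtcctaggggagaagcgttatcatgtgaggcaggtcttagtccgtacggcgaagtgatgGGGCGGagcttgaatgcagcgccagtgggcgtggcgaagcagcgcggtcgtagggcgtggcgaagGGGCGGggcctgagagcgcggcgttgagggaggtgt
All 5 windows hold a GC box, and the windows of Bcl2, Ripk1 and Casp9 hold several. The windows of Fas and Ripk1 shown here hold STAT motifs, and that of Fas also holds an AP-1 motif. The window of the other Ripk1 start, at chr13:34002113-34002362, holds GC boxes but no STAT motif.

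RefSeq windows were matched for 32 of the 35 genes, with 43 starts in all. A GC box was found in 23 of these 43 windows (53.5%) and in 32.7% of the 32851 windows of all genes, so it is a common feature of promoters. The STAT motif was found in the windows of 4 apoptosis genes, Fas, Ripk1, Tnfrsf1a and Casp12, which is 9.3% of the 43 windows beside 7.02% of all. The AP-1 motif was found in 1 window, that of Fas, and in 6.75% of all windows. The cyclic AMP response element (TGACGTCA) was found for Cycs and Birc2 and in 1.55% of all windows. NF-kappaB motifs were found in windows of Bcl2l1, Aifm1 and Casp4 and in 7.25% of all windows, and a p53 half-site in that of Bmf and in 7.13% of all. The STAT, AP-1 and cyclic AMP motifs read the same on both strands, so a match there is 1 place. These are matches of letters in a short window and not measured binding sites.

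Among death receptors and their adaptors, 3 of 7 genes were higher in Ethanol animals and none was lower past the test. Fas, the receptor of FAS ligand, was measured at 0.228, 0.364 and 0.654 CPM in the lowest, median and highest Control animal and at 0.412, 0.673 and 1.33 CPM in the lowest, median and highest Ethanol animal. Every Ethanol animal exceeded the Control median and 6 lay above the highest Control animal, X4762. Control animals averaged 0.364 ± 0.118 CPM and Ethanol animals 0.732 ± 0.286 CPM (SD, n = 12 each), a log2 fold change of 1.005 with SE 0.201 and adjusted p = 0.00118. Fas was a gene of low counts, 434 in all 24 libraries together, and its coefficient of variation among Control animals, 32.4%, was the highest of the 35 genes. The difference was uneven over the animals. In the 6 runs of 4 consecutive animal numbers, each with 2 Ethanol and 2 Control animals, the mean log2 CPM of Ethanol minus Control was 1.46, 0.99, 1.48, 0.18, 0.16 and 0.93 in numerical order. It was above 0 in all 6 runs, and smallest in runs 4 and 5.

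Ripk1, a kinase and scaffold at TNF and death receptor complexes, was measured at 16.9, 18.9 and 20.3 CPM in the lowest, median and highest Control animal and at 18.1, 20.6 and 23.3 CPM in Ethanol animals. The ranges overlapped, with 6 Ethanol animals above the highest Control animal. With a mean of 18.9 ± 0.993 CPM in Control animals and 21.0 ± 1.69 CPM in Ethanol animals, Ripk1 rose by 0.15 on the log2 scale (SE 0.042, adjusted p = 0.0139). It missed the threshold without run 2 or run 5 (adjusted p = 0.0544 and 0.0534). Ripk1 overlaps 2 annotated genes whose reads the counting could have shared with it. Gm17084, on the same strand, averaged 1.19 ± 0.245 CPM over Control and 1.46 ± 0.315 CPM over Ethanol animals (adjusted p = 0.114), and Serpinb6a, on the other strand, at means of 25.3 and 23.8 CPM (adjusted p = 0.2).

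Cflar encodes FLIP, which competes with caspase-8 at the death receptors and blocks its activation. It was measured at 20.01, 21.4 and 22.8 CPM in the lowest, median and highest Control animal and at 20.7, 22.6 and 24.8 CPM in Ethanol animals. The groups overlapped widely, with 4 Ethanol animals above the highest Control animal and 11 above the Control median. The log2 fold change was 0.09 with SE 0.031 and adjusted p = 0.0475, and adjusted p = 0.114 once the 4 libraries low in Ttr were left out. Cflar also missed the threshold with upper-quartile scaling (adjusted p = 0.0873) and with no filter (adjusted p = 0.122). The same held without any run but run 4 (adjusted p from 0.0709 to 0.2) and without 1 animal in 16 of 24 cases.

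The other 4 genes of this group did not pass the test. Tnfrsf1a, the TNF receptor with a death domain, had a log2 fold change of 0.14 with a 95% interval of 0.04 to 0.25 and adjusted p = 0.0532. It passed without X4673 (adjusted p = 0.0446) and with the runs as a block (adjusted p = 0.0204). Fadd, the adaptor that binds caspase-8, had a log2 fold change of 0.12 (-0.01 to 0.25, adjusted p = 0.215). The TRAIL receptor Tnfrsf10b averaged 2.58 ± 0.360 CPM over Control and 2.58 ± 0.329 CPM over Ethanol animals, and its interval, -0.18 to 0.17, was centred close to 0 (adjusted p = 0.976). Ripk3, the kinase of necroptosis, was at 1.28 ± 0.382 and 1.08 ± 0.172 CPM, with an interval of -0.52 to 0.05 (adjusted p = 0.279). The size of a Ripk3 difference is thus poorly known, since its Control animals varied by 29.9%.

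**Figure D2:**
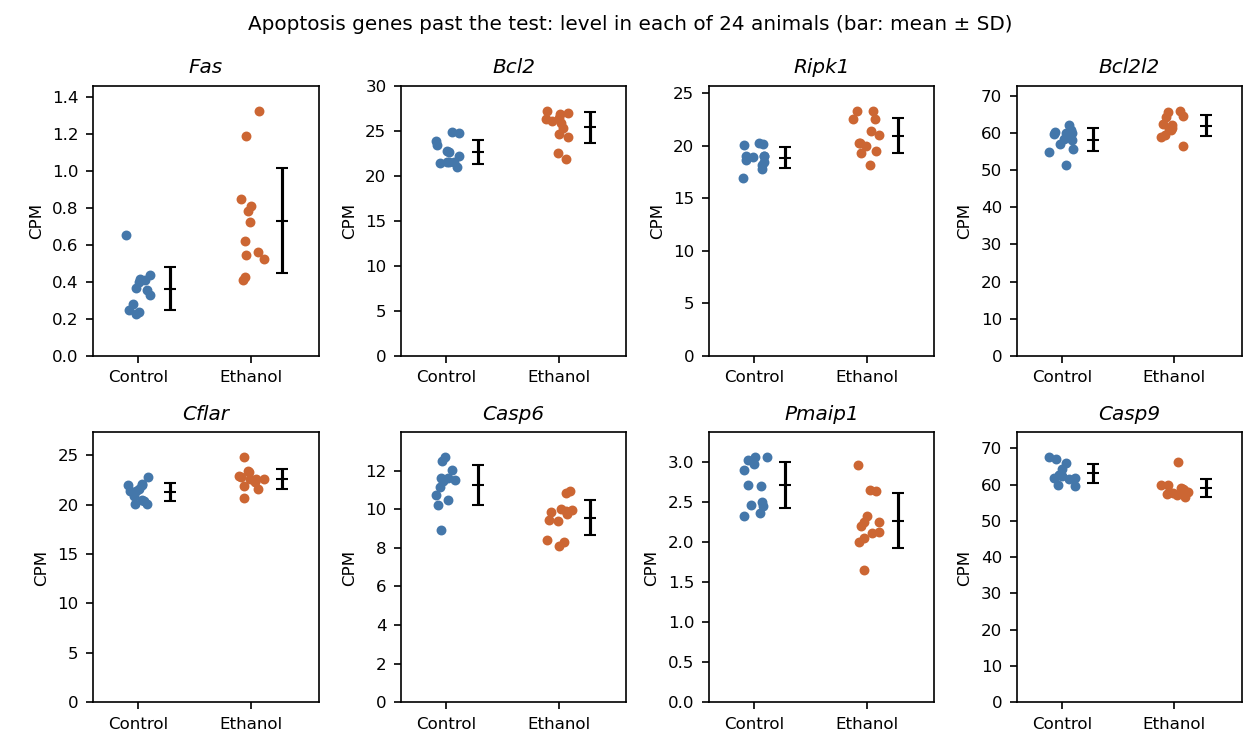
CPM of the 8 apoptosis genes past the test in each of 12 Control and 12 Ethanol animals, with the mean and SD as a bar beside the points and each axis starting at 0. All 8 pairs of groups overlap, and Fas shows the widest gap for its level.

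Among the 4 prosurvival BCL2 genes, Bcl2 and Bcl2l2 were higher in Ethanol animals and Bcl2l1 and Mcl1 did not pass the test. Bcl2, which holds the pore-forming proteins inactive at the mitochondrion, was measured at 21.0, 22.5 and 24.9 CPM in the lowest, median and highest Control animal and at 21.95, 26.0 and 27.3 CPM in Ethanol animals. The levels of 8 of 12 Ethanol animals exceeded those of every Control animal, so Bcl2 was among the better separated of the 35 genes. Control animals averaged 22.7 ± 1.33 CPM and Ethanol animals 25.4 ± 1.74 CPM, an increase of 12.2% with log2 fold change 0.17, SE 0.039 and adjusted p = 0.00506. Within the 6 runs the difference was 0.10, 0.17, 0.12, 0.20, 0.27 and 0.13 on the log2 scale. It therefore had the same direction, and a similar size, in every run. An antisense gene annotated over Bcl2, D630008O14Rik, had 5 counts in all libraries together.

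Bcl2l2 encodes BCL-W, a prosurvival protein of neurons among other cells. It was measured at 51.4, 59.0 and 62.1 CPM in the lowest, median and highest Control animal and at 56.4, 61.6 and 66.0 CPM in Ethanol animals. The lowest Ethanol animal lay inside the Control range and 6 lay above it. The log2 fold change was 0.09 with SE 0.030 and adjusted p = 0.0408, but Bcl2l2 missed the threshold when libraries low in Ttr were left out (adjusted p = 0.0653) and with upper-quartile scaling (adjusted p = 0.0622). It also missed it with no filter (adjusted p = 0.0652), without run 1, 3 or 4 (adjusted p from 0.0882 to 0.156) and without 1 animal in 15 of 24 cases. Gm20521, an annotated gene on the same strand that overlaps Bcl2l2, averaged 0.518 ± 0.304 CPM over Control and 0.276 ± 0.236 CPM over Ethanol animals and did not pass the test (adjusted p = 0.186).

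Bcl2l1 encodes BCL-XL, the prosurvival protein on which many postmitotic neurons depend. It averaged 108.8 CPM over Control and 107.3 CPM over Ethanol animals, with a 95% interval of -0.09 to 0.05 around a log2 fold change of -0.02 (adjusted p = 0.736). Mcl1, a prosurvival protein of fast turnover, was at 148.4 and 152.7 CPM, with an interval of -0.02 to 0.10 (adjusted p = 0.366). A change of either gene by more than 0.1 on the log2 scale therefore lay at or beyond the edge of its interval.

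Both pore-forming genes among the 35, Bok and Bak1, missed the threshold in edgeR, with 1, Bok, at an unadjusted p under 0.05. Bok passed in limma-trend, limma-voom and DESeq2. Bok was at 47.6, 53.3 and 59.7 CPM in the lowest, median and highest Control animal and at 43.0, 47.8 and 62.5 CPM in Ethanol animals, with 6 Ethanol animals below the lowest Control animal. Its highest Ethanol animal was X4673, which also lay above every Control animal. With X4673 the log2 fold change was -0.13 with SE 0.046 and adjusted p = 0.0519, and without it -0.17 and adjusted p = 0.00135. Bok also passed without Control X4768 (adjusted p = 0.0352), with the runs as a block (adjusted p = 0.0476) and with upper-quartile scaling (adjusted p = 0.0323). All 6 of its within-run differences were below 0, from -0.30 to -0.01 on the log2 scale. Bak1, which opens the outer mitochondrial membrane, was at 35.2, 36.8 and 40.4 CPM in the lowest, median and highest Control animal and at 33.9, 36.3 and 43.3 CPM in Ethanol animals. Its highest value was again that of X4673, and its log2 fold change was -0.03 with SE 0.036 and adjusted p = 0.635.

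Of the 7 BH3-only genes, 1 was lower in Ethanol animals and 6 did not pass the test. Pmaip1 encodes NOXA, which binds MCL1 and is a known target of p53. It was measured at 2.33, 2.71 and 3.06 CPM in the lowest, median and highest Control animal and at 1.65, 2.22 and 2.96 CPM in Ethanol animals. 9 of 12 Ethanol animals lay below the lowest Control animal, and 1 lay above the Control median. Means were 2.71 ± 0.285 CPM for Control and 2.27 ± 0.345 CPM for Ethanol animals, and the log2 fold change was -0.26 with SE 0.084 and adjusted p = 0.0389. The adjusted p was 0.0484 without X4673. Pmaip1 missed the threshold with no filter (adjusted p = 0.11), without run 2, 3, 4, 5 or 6 (adjusted p from 0.0607 to 0.15) and without 1 animal in 10 of 24 cases. The direction was the same in all 6 runs, from -0.14 to -0.40 on the log2 scale.

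Bik had the lowest log2 fold change of the 35 genes, -0.30, but its interval of -0.60 to 0.003 was wide and it did not pass the test (adjusted p = 0.18). Counts of Bik were low, with 0.597 ± 0.143 CPM over Control and 0.484 ± 0.111 CPM over Ethanol animals. Hrk, a BH3-only gene of neurons, had a log2 fold change of 0.13 (-0.02 to 0.27, adjusted p = 0.253). For Bcl2l11, which encodes BIM and is induced in neurons deprived of trophic support, the interval was -0.02 to 0.14 (adjusted p = 0.332). Bid, which links caspase-8 to the mitochondrion, had a log2 fold change of -0.07 (adjusted p = 0.295), Bmf 0.07 (adjusted p = 0.545) and Bad 0.01 (adjusted p = 0.905). The BH3-only genes thus had no shared direction, with 4 values above 0 and 3 below.

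None of the 5 genes of the apoptosome and of proteins that mitochondria release passed the test in edgeR, limma-trend, limma-voom or DESeq2, and 1, Aifm1, had an unadjusted p under 0.05. Aifm1, the apoptosis-inducing factor, had the lowest value of the group. It was at 41.5, 44.6 and 47.5 CPM in the lowest, median and highest Control animal and at 39.8, 41.7 and 48.8 CPM in Ethanol animals, and 1 Ethanol animal, X4673, lay above the Control median. Its log2 fold change was -0.07 with SE 0.029 and adjusted p = 0.125, and -0.09 with adjusted p = 0.0133 without X4673. Diablo, an antagonist of the inhibitor of apoptosis proteins, had the highest value. It was at 51.0, 54.3 and 57.1 CPM in the lowest, median and highest Control animal and at 51.3, 55.3 and 67.6 CPM in Ethanol animals, with a log2 fold change of 0.04, SE 0.034 and adjusted p = 0.474. The highest Ethanol value was that of X4673 again. Apaf1 had an interval of -0.11 to 0.03 (adjusted p = 0.471) and Cycs, cytochrome c, one of -0.10 to 0.06 (adjusted p = 0.772). Cycs was the most even of the 35 genes among Control animals, with a coefficient of variation of 3.32%. Endog, a mitochondrial nuclease, had a log2 fold change of 0.03 (adjusted p = 0.867).

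The 4 initiator and executioner caspases among the 35 genes all had a log2 fold change below 0, and 2 of them, Casp6 and Casp9, passed the test. Of the 17736 genes tested, 9279 had a log2 fold change below 0. Casp6, an executioner caspase that cleaves lamins, was measured at 8.94, 11.5 and 12.7 CPM in the lowest, median and highest Control animal and at 8.07, 9.79 and 10.9 CPM in Ethanol animals. No Ethanol animal reached the Control median, and 3 lay below the lowest Control animal. Means were 11.3 ± 1.04 CPM for Control and 9.56 ± 0.920 CPM for Ethanol animals, a log2 fold change of -0.23 with SE 0.057 and adjusted p = 0.00608. Within the runs the difference was -0.15, -0.32, -0.21, -0.36, -0.36 and -0.01 on the log2 scale, so the sixth run had almost none.

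Casp9, the initiator caspase of the apoptosome, was measured at 59.6, 62.4 and 67.6 CPM in the lowest, median and highest Control animal and at 56.7, 58.3 and 66.2 CPM in Ethanol animals. 9 of 12 Ethanol animals lay below the lowest Control animal, while 1 lay within the upper part of the Control range. Casp9 averaged 63.1 ± 2.62 CPM over Control and 58.9 ± 2.48 CPM over Ethanol animals, a log2 fold change of -0.10 with SE 0.026 and adjusted p = 0.0114. The change was small, and Casp9 missed the threshold without run 3, 4 or 5 (adjusted p = 0.0535, 0.0661 and 0.0587). Cela2a and Ctrc, annotated on the other strand over Casp9, had 12 and 0 counts in all libraries together.

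Casp2, an initiator activated on the PIDD1 scaffold, had a log2 fold change of -0.09 with a 95% interval of -0.16 to -0.03 and adjusted p = 0.0509. It passed without X4768 (adjusted p = 0.0379), with the runs as a block (adjusted p = 0.0395) and with upper-quartile scaling (adjusted p = 0.028). Casp8, the initiator of the death receptors, had a log2 fold change of -0.10, an interval of -0.22 to 0.03 and adjusted p = 0.311. The fold change of Casp8 was about that of Casp9, with an SE of 0.061 in place of 0.026.

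The 3 inflammatory caspases all had log2 fold changes above 0, as did 8457 of the 17736 genes tested. None of the 3 caspases passed the test in edgeR, limma-trend, limma-voom or DESeq2, and 1, Casp1, had an unadjusted p under 0.05. Casp1, which matures interleukin-1 beta in the inflammasome, was at 0.531, 0.790 and 0.964 CPM in the lowest, median and highest Control animal and at 0.594, 0.976 and 1.32 CPM in Ethanol animals. 11 Ethanol animals lay above the Control median and 6 above the highest Control animal. The log2 fold change was 0.35 with SE 0.123 and adjusted p = 0.0536, and 0.43 with adjusted p = 0.0331 without the libraries low in Ttr. With the runs as a block Casp1 passed as well (adjusted p = 0.0459), and its within-run differences, 0.18 to 0.75 on the log2 scale, were all above 0. Casp12, a caspase tied to the endoplasmic reticulum, was at 4.09, 4.77 and 5.78 CPM in the lowest, median and highest Control animal and at 3.10, 4.98 and 6.70 CPM in Ethanol animals. Its log2 fold change was 0.08 with SE 0.095 and adjusted p = 0.648. Casp4, the sensor of cytosolic lipopolysaccharide, had an interval of -0.19 to 0.75, the widest of the 35 genes, and adjusted p = 0.453.

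The inhibitor of apoptosis genes Xiap, Birc2 and Birc3 did not pass in edgeR, limma-trend, limma-voom or DESeq2 either, and 0 of the 3 had an unadjusted p under 0.05. Birc3, an inhibitor that is induced by NF-kappaB, was at 2.15, 2.44 and 2.96 CPM in the lowest, median and highest Control animal and at 2.01, 2.40 and 3.82 CPM in Ethanol animals, where the highest was X4760. Its log2 fold change was 0.06 with SE 0.091 and adjusted p = 0.716. Xiap, which binds caspases directly, was at 74.9, 83.1 and 95.6 CPM in the lowest, median and highest Control animal and at 61.0, 83.4 and 88.7 CPM in Ethanol animals, where the lowest was X4673. Its log2 fold change was -0.04 with SE 0.046 and adjusted p = 0.669. Birc2 had a log2 fold change of 0.04 (-0.01 to 0.09, adjusted p = 0.34) and was above 0 in all 6 runs.

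**Figure D3:**
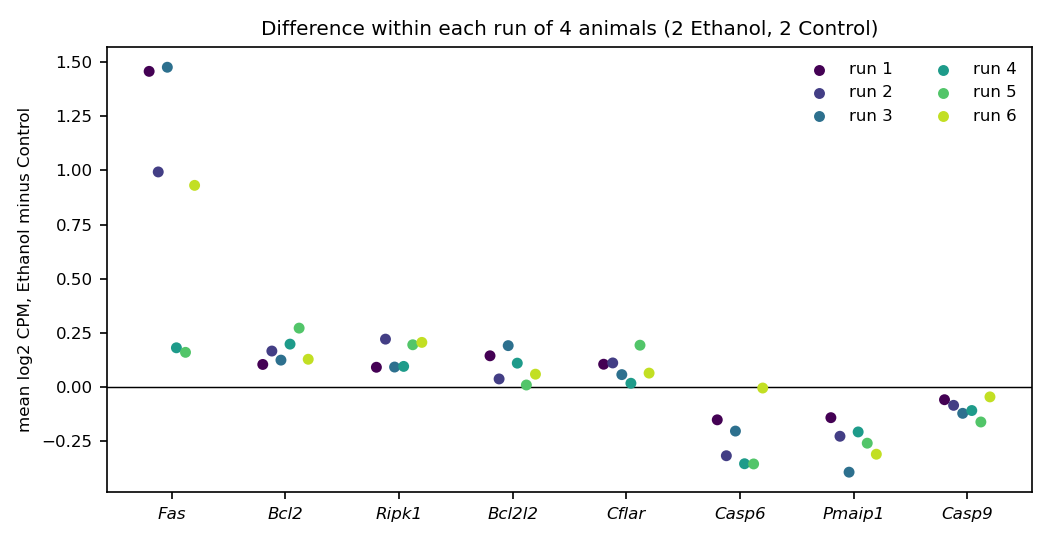
Mean log2 CPM of the 2 Ethanol animals minus that of the 2 Control animals in each of 6 runs of consecutive animal numbers, for the 8 apoptosis genes past the test. Every difference has the direction of the pooled change, and those of Fas range from 0.16 to 1.48.

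The threshold divided genes of like evidence. Casp2, Bok, Tnfrsf1a and Casp1 had an adjusted p between 0.05 and 0.06, and Bcl2l2 and Cflar were just inside the threshold of 0.05. For the genes that did not pass, the intervals limit what could have been missed. The 95% interval lay within 0.5 of 0 on the log2 scale for 30 of the 35 genes, and within 0.25 for 20 of the 27 that did not pass. Over all genes tested these counts were 15029 of 17736, and 9644 of the 15100 that did not pass. The exceptions among the 35 genes, with intervals reaching past 0.5, were Fas, Bik, Casp1, Casp4 and Ripk3.

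Of 40 further genes of the pathway, 32 had counts enough to test, and 4 of these (12.5%) passed, 2 higher and 2 lower, a share near the 14.9% of all genes tested. Bcl2a1b, a prosurvival BCL2 gene of blood and myeloid cells, rose the most. It was measured at 0.586, 0.929 and 1.24 CPM in the lowest, median and highest Control animal and at 1.05, 1.72 and 2.07 CPM in Ethanol animals, and in 11 of 12 Ethanol animals it exceeded the highest Control value. The log2 fold change of Bcl2a1b was 0.86 with SE 0.131 and adjusted p = 8.77e-05. Bcl2a1b has near-identical copies, Bcl2a1a and Bcl2a1d, that were not tested, so the share of reads given to each is uncertain. Traf2, an adaptor of TNF receptors, was measured at 14.3, 17.4 and 19.97 CPM in the lowest, median and highest Control animal and at 17.4, 20.2 and 23.01 CPM in Ethanol animals. Traf2 had a log2 fold change of 0.23 with SE 0.059 and adjusted p = 0.00871, and all but 1 of the Ethanol animals exceeded the Control median.

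The lower genes were Tnfsf10 and Pidd1. Tnfsf10, the ligand TRAIL, was at 3.70, 4.24 and 5.43 CPM in the lowest, median and highest Control animal and at 2.46, 3.39 and 5.61 CPM in Ethanol animals, with 8 Ethanol animals below the lowest Control animal. This gave a log2 fold change of -0.36 with SE 0.102 and adjusted p = 0.0182. Pidd1, the scaffold that activates caspase-2, was at 21.0, 22.8 and 25.3 CPM in the lowest, median and highest Control animal and at 16.9, 21.1 and 22.3 CPM in Ethanol animals. No Ethanol animal reached the Control median. This gave a log2 fold change of -0.16 with SE 0.041 and adjusted p = 0.0116. Neither passed once the 4 libraries low in Ttr were left out (adjusted p = 0.0682 for Tnfsf10 and 0.0732 for Pidd1), where Bcl2a1b and Traf2 still did. Tnfsf10 also missed the threshold without run 1, 4 or 6 (adjusted p = 0.106, 0.062 and 0.0831).

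Bax, a main pore-forming gene, did not pass the test. Bax was at 66.3 ± 3.54 and 70.4 ± 6.24 CPM (adjusted p = 0.149). Trp53, which encodes p53, had a log2 fold change of 0.07 (adjusted p = 0.104), and Bbc3, which encodes the BH3-only protein PUMA, one of -0.01 with an interval of -0.14 to 0.13 (adjusted p = 0.958).

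**Figure D4:**
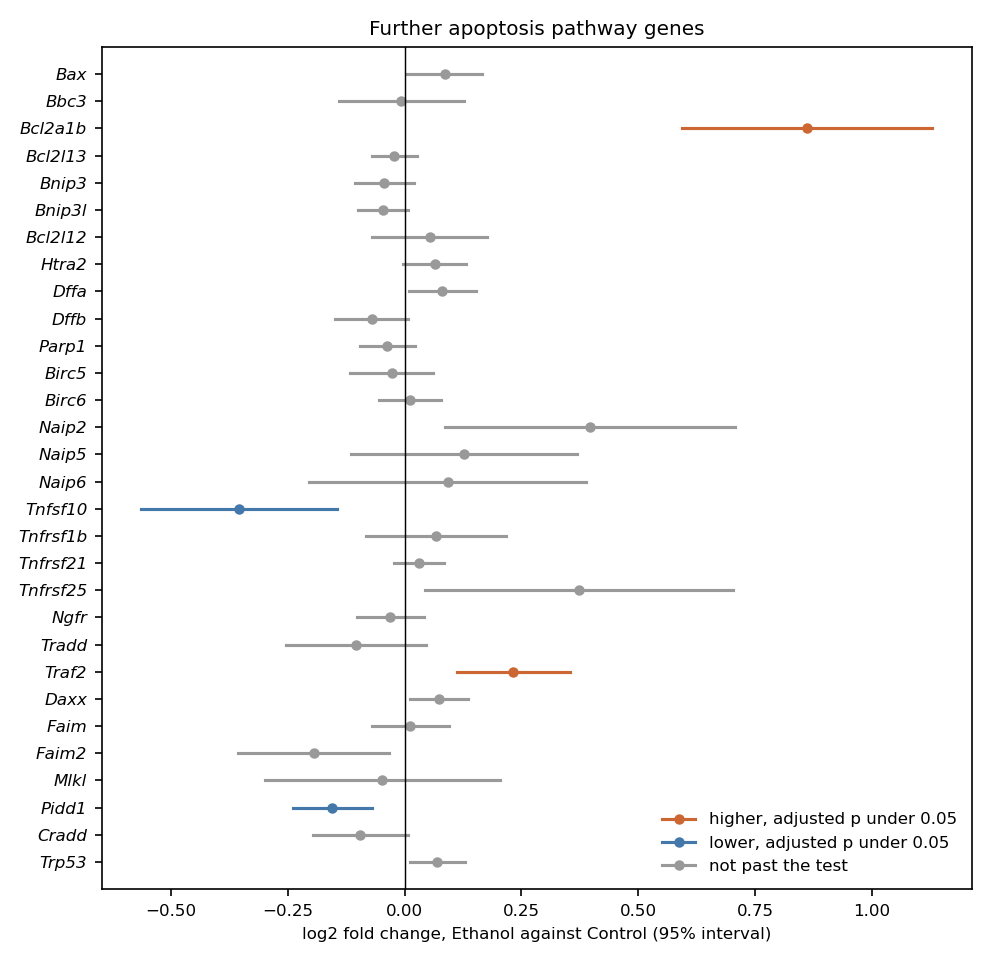
Log2 fold change of Ethanol against Control, with the 95% interval as a bar, for further genes of the apoptosis pathway (12 animals per group). Bcl2a1b and Traf2 are higher (orange), Tnfsf10 and Pidd1 lower (blue) and the other genes shown did not pass the test (grey).

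Some markers of several cell types also passed the test, as did 14.9% of all genes tested. The share was 58.3% for microglia, 50% for astrocyte and 40% for endothelial markers. For Purkinje cell, granule neuron and blood markers it was 25%, 20% and 16.7%, closer to that of all genes. Of 12 microglia markers, 5 were higher and 2 lower, and their summed level was 188.6 to 275.6 CPM in Control (median 200.9) and 217.1 to 355.1 CPM in Ethanol animals (median 242.5). C1qa, of microglia, had a log2 fold change of 0.54 (adjusted p = 0.00369) and P2ry12, also of microglia, one of -0.53 (adjusted p = 0.0116). Of 10 endothelial markers 4 were lower, with a summed level of 452.8 to 502.4 CPM in Control (median 477) and 389.2 to 459.4 CPM in Ethanol animals (median 429.5). Of 8 Purkinje cell markers 2 were lower, and of 8 astrocyte markers 2 were higher and 2 lower. Of 10 markers of granule neurons and their precursors 1 was higher and 1 lower, and none of 8 oligodendrocyte markers passed the edgeR test, nor had one an unadjusted p under 0.05. Of 6 blood markers 1, Slc4a1, was lower past the test, and all 6 had a log2 fold change below 0 (-1.12 to -0.55). Their summed level was 63.3 to 251.4 CPM in Control (median 124.8) and 23.7 to 293.8 CPM in Ethanol animals (median 66.0). Of 10 choroid plexus markers none passed the edgeR test and 0 had an unadjusted p under 0.05, with a summed level of 35.1 to 5402 CPM in Control and 45.9 to 5403 CPM in Ethanol animals. The part of these cell types in the differences of Fas, Casp1, Bcl2a1b, Tnfsf10 and the other apoptosis genes was not tested.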

How the data were processed

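The authors deposited gene-level estimated counts, made from paired-end reads of poly(A) RNA with nf-core/rnaseq. STAR, Salmon, limma and GRCm39 appear in the processing notes of the submitters without versions, and the sources used here give neither the annotation release nor the strand setting. Counts were rounded, since 10.9% of values lay more than 0.01 from whole. After filterByExpr and TMM scaling (factors 0.9822 to 1.013), edgeR 4.0.16 (in R 4.3.3, by robust glmQLFit and glmQLFTest with 22 residual degrees of freedom) compared 12 Ethanol with 12 Control animals at an adjusted p of 0.05. The SE came from the F statistic. CPM use TMM-scaled library sizes, and log2 CPM a prior count of 2. No 2 libraries were as close as sampling noise alone would make them (mean chi-square per gene of at least 4.951). At the depth given above, counting error matters most for genes of low counts.

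The genes and lists were chosen with earlier results of these data known. All 35 genes are named, with full ranges for those past the test and, in a role group where none passed, for the highest and lowest fold change. Further genes past the test get full ranges, and Bax, Bbc3 and Trp53 were added after their values were seen, as were the genes that overlap called ones in GENCODE. Some genes of the further list are counted but not reported here by name.

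Alternatives were limma-trend and limma-voom (limma 3.58.1), DESeq2 1.42.0, other scaling factors (RLE, upper quartile), no filter or a strict one (1 CPM in 12 libraries), a block for the 6 runs of animal numbers, and leaving out libraries low in Ttr (known from earlier results), each run or each animal. The runs are a grouping by number only, with no litter, age or sex in the labels. By the study's methods, each of 6 litters gave 1 male and 1 female animal to each group. The labels do not link the runs to these litters, and the main test had no term for litter. The fit was tested on simulated counts. Promoter windows are from RefSeq (GRCm38.p6), another build than that of the counts, and served for sequence only.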

Additional observations from a re-analysis of the deposited data

How the results depend on the processing

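Over 39 alternatives, the 8 called apoptosis genes kept their direction in every one. Bcl2 and Casp6 passed the test in all 39 and Fas in the 38 that tested it, as Fas was not tested under the stricter filter. Ripk1 passed in 37 and Casp9 in 36, while Pmaip1 passed in 23, Bcl2l2 in 18 and Cflar in 15. The number of apoptosis genes past the test was 8, and it was 5 with no filter, 4 without run 3, 5 without run 4 and 4 without run 5. Of all genes tested, 14.9% passed in the main fit and 5.72%, 9.73%, 9.05% and 12.1% in those fits, in the same order. When 1 animal was left out the number of apoptosis genes ranged from 5 to 11. It was 5 without Control X4679, Control X4685 or Ethanol X4694, where 12.8%, 12.2% and 13.5% of all genes passed. It was 11 without Ethanol X4673, where 17.9% of all genes passed. With the runs as a block it was 12 (Bok, Casp2, Casp1 and Tnfrsf1a added) and with DESeq2 11, which is within 1.5 times the count. The shares of all genes there were 18.9% and 16.9%. The cause of these shifts was not tested. Of the 27 genes that did not pass, 6 passed in at least 1 alternative and 6 changed sign in at least 1. The number of further pathway genes past the test was 4, and 2 without the libraries low in Ttr, and 4 to 6 when 1 animal was left out. Of all genes tested, 10.2% passed without the libraries low in Ttr and 12.2% to 17.9% when 1 animal was left out. With upper-quartile factors, 49.6% of the called genes of the whole table were higher, in place of 61%, and 3 apoptosis genes were higher and 5 lower. The block for runs was the only pairing tried, since the labels give the groups no shared replicate numbers, and it ended no call among the 8 genes. Low counts limit Fas, Bik, Casp1, Casp4 and Ripk3.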
